A study of Arabidopsis thaliana with 9 samples.

Results

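Gibberellins are growth hormones that promote germination, stem elongation and flowering. In Arabidopsis, GA 20-oxidases and GA 3-oxidases carry out the last steps that make the bioactive forms, and GA 2-oxidases inactivate them. The soluble receptors GID1A, GID1B and GID1C bind bioactive gibberellin and then capture the DELLA proteins GAI, RGA, RGL1, RGL2 and RGL3, nuclear growth repressors that are destroyed as a result. Transcripts of several synthesis and receptor genes are known to be raised by DELLAs, which forms a feedback loop on the pathway. The genes described here are GA3OX1, GA20OX2, the 3 GID1 receptors and the 5 DELLAs, selected by locus identifier. All 10 were found among the 25199 loci of the table, and all 10 were abundant enough to be tested.

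Transcripts were measured by RNA sequencing of whole Arabidopsis thaliana seedlings, 7 days old. Seeds were kept at 4°C in the dark for 2 days, and seedlings then grew on plates with 16 h light and 8 h dark at 22°C, with no further treatment. There were 3 genotypes with 3 biological replicates each: a line over-expressing RAV1 (a repressor-type transcription factor with AP2 and B3 domains), the mutant bes1-D (known as a gain-of-function allele of BES1, a transcription factor of brassinosteroid signalling), and the En2 (Enkheim) wild type. The genotype field of the labels gives En2 for all 9 libraries, so both lines are taken here to share that background. Which promoter drives RAV1, and whether the line is 1 of several, is not stated in the labels. Values are FPKM, fragments scaled to transcript length and library size, so levels of different genes can be compared. Differences are limma estimates on the log2(FPKM + 1) scale, which understates the change of genes at a few FPKM, and a gene is said to rise or fall where its Benjamini-Hochberg adjusted p over all 19740 loci tested is under 0.05.

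In replicate order, RAV1 itself was at 1064, 756 and 1426 FPKM in the over-expression line, 53.9, 58.3 and 33.2 FPKM in bes1-D, and 71.4, 99.0 and 81.9 FPKM in En2 wild type. The libraries thus followed their labels for RAV1, with replicate 2 the lowest of the over-expression libraries. BES1 measured 60.7, 73.5 and 52.4 FPKM in RAV1 over-expression, 136.5, 141.6 and 182.5 FPKM in bes1-D, and 95.5, 121.4 and 106.2 FPKM in wild type. It fell in RAV1 over-expression against wild type (log2 difference -0.79, adjusted p = 0.00508) and was lower there than in bes1-D (-1.29, adjusted p = 0.000238). In bes1-D against wild type BES1 did not pass (0.5, adjusted p = 0.0692), except under trimmed-mean scaling (0.0485).

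Markers of other tissues and stages moved with genotype. Over all tested loci, 23% were called in RAV1 over-expression against wild type and 7.96% in bes1-D against wild type. The 9 listed seed maturation genes summed to 135.8 to 1648 FPKM in RAV1 over-expression, 21.9 to 35.3 in bes1-D and 17.9 to 33.9 in wild type. The 7 tested, CRC, CRA1, PAP85, EM1, EM6, OLEO1 and OLEO2, were higher in RAV1 over-expression than in wild type (4 of 7 when En2 wild type replicate 2 was left out, and 2 of 5 tested when RAV1 over-expression replicate 1 was), and SESA1 was listed at 0 in every bes1-D library. PAP85 and EM1 reached 1 FPKM only in RAV1 over-expression, so the filter fixed their direction. The 7 green tissue genes summed to 21728 to 31601 FPKM, 46749 to 50453 FPKM and 42943 to 45227 FPKM in the same order of genotypes. All 7 (LHCB1.1, LHCB1.3, LHCB2.1, LHCA2, RBCS1A, PSBO1 and RCA) were lower in RAV1 over-expression than in wild type, but 1 of 7 under quantile normalization. That setting gives loci of equal rank equal values, so it cannot show a fall of genes that keep a top rank, such as LHCB1.3 and RBCS1A. The LHCB2.1 call was lost in 10 of 17 alternatives and that of RCA in 6 of 17, leaving out single libraries among them. The 8 root genes summed to 95.2 to 100.2 FPKM, 57.2 to 66.9 FPKM and 93.3 to 98.0 FPKM, in the same order. Root genes moved both ways in RAV1 over-expression against wild type: EXPA7 (log2 difference 0.8), SCR (0.39) and SHR (0.38) rose, and PHT1;1 (-2.52) and NRT2.1 (-1.93) fell. Under trimmed-mean scaling and quantile normalization 1 of 8 rose and 2 fell, as they did without RAV1 over-expression replicate 1 and without wild-type replicate 2 or 3. Without RAV1 over-expression replicate 3, 1 rose and 1 fell, and without En2 wild type replicate 1, 2 rose and 1 fell. In bes1-D, 4 of 8 fell (EXPA7, PHT1;1, COBL9 and CASP1), but 2 of 8 without any 1 bes1-D library and without wild-type replicate 1 or 2. PHT1;1 was under 1 FPKM in every RAV1 over-expression library and passed the filter through the other genotypes. In whole seedlings, fewer cells of a type and less RNA per cell cannot be told apart, and the part of these marker differences in the results below was not tested.

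The 3 genes that rose in RAV1 over-expression were GID1A, GID1B and RGL3. Their promoters are shown because the series is about binding factors of known sequence preference. RAV proteins are known to recognise a bipartite site, searched here as CAACA and as CACCTG. Sites known for BES1 were searched as CGTGTG and as CGTGCG. The E-box, another BES1 site, was searched as CANNTG. The G-box CACGTG is a special case of it. The 250 bases before each annotated gene start (RefSeq, TAIR10.1) are printed 5′ to 3′ on the gene's own strand. Capitals mark every match to any of these motifs on either strand.
GID1A (chr3:1430113-1430362, plus strand): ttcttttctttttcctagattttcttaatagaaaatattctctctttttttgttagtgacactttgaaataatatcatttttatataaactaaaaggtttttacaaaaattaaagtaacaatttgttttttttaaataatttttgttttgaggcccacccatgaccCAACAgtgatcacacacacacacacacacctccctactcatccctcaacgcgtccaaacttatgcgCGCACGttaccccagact
GID1B (chr3:23288993-23289242, plus strand): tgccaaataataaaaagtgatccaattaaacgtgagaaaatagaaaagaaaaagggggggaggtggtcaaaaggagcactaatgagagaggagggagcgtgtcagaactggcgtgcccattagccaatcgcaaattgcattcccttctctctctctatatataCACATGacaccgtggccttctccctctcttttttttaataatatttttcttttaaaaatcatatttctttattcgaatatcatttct
RGL3 (chr5:5766247-5766496, minus strand): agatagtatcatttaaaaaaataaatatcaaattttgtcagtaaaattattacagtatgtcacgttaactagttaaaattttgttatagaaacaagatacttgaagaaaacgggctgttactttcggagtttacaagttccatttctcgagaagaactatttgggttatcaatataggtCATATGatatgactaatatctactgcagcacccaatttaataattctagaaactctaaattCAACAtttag

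In these windows CAACA lay at position -84 of GID1A and -10 of RGL3, counting -1 as the last base before the gene start, and it was absent from that of GID1B. It occurred before 7 of the 10 genes and before 47.4% of all 27443 protein-coding genes. CACCTG, which was found before 2.57% of all genes, was before none of the 10, nor was CGTGTG (5.37% of all) or CACGTG (6.49%). GID1A alone of the 10 held CGTGCG, on the opposite strand at -18, against 1.57% of all genes. The E-box was present before GID1B at -87, before RGL3 at -71 and before 4 of the 10 genes in all, against 55.3% of all genes. The remaining genes are not printed, since none of them passed in a comparison. These matches describe the letters of a short window only.

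In wild type the DELLA gene RGA was the most abundant of the 10 at 41.1 ± 4.3 FPKM, followed by GID1A at 24.7 ± 4.04 FPKM (SD, n = 3). GAI at 17.2 FPKM and GID1B at 15.0 FPKM overlapped between libraries, as did GID1C at 12 and GA3OX1 at 11.3 FPKM. RGL1 stood alone at 5.16 FPKM, GA20OX2 at 3.14 and RGL2 at 3.04 overlapped, and RGL3 was lowest at 2.11 FPKM. RGA was above 80.2% of tested loci and RGL3 above 11.1%. RAV1 over-expression changed this order: GID1B stood above GAI on average there, with overlapping libraries, and RGL3 stood above RGL2, again with overlap. GA20OX2 was the lowest of the 10 there at 2.02 FPKM, overlapping RGL2. In bes1-D RGL3 was the lowest, as in wild type, and every bes1-D library of RGL3 was below every one of GA20OX2.

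**Figure D1:**
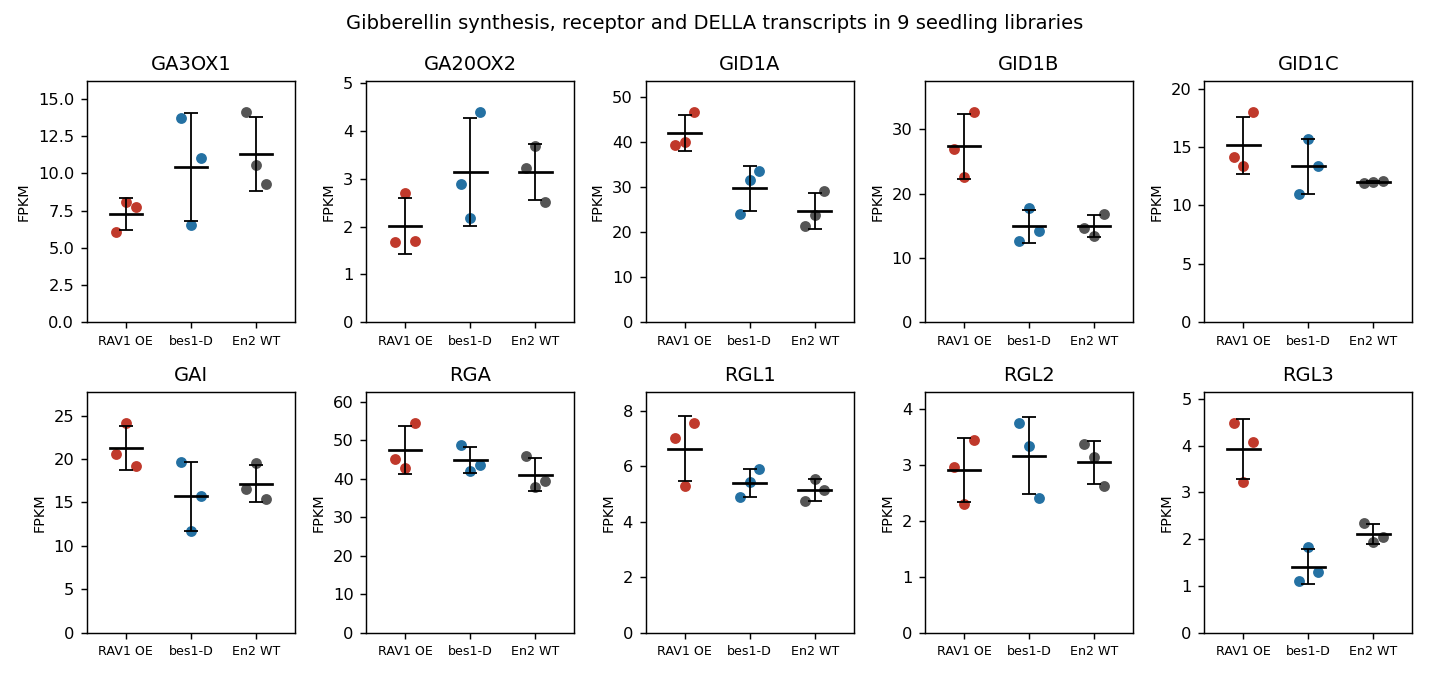
Transcript level (FPKM, linear axes from 0) of the 10 genes in RAV1 over-expression (RAV1 OE), bes1-D and En2 wild type (En2 WT). Points are libraries and bars the mean ± SD of 3; GID1A, GID1B and RGL3 in RAV1 OE lie above all libraries of both other genotypes.

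Setting the RAV1 line against wild type asks how transcripts of the pathway stand when RAV1 is raised. GID1A, GID1B and RGL3 rose, and none of the 10 fell. This is 3 of 10 genes, against 23% of all tested loci called in either direction (15% higher, 8.01% lower), so the share called was not far from that of the table. The libraries of both genotypes did not overlap for 5 of the 10 genes, of which 4 were higher and 1 lower, against 46.8% of all tested loci (31.2% higher, 15.6% lower). The median log2 difference of the 10 was 0.3, against 0.093 over all tested loci. Higher calls made up 65.2% of all calls over the tested loci, but 46.1% under trimmed-mean scaling and 47.6% under quantile normalization. The 3 calls held under both scalings.

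Among the receptors, GID1A and GID1B rose and GID1C did not pass. GID1A (AT3G05120, chromosome 3, 1430363 to 1432844, plus strand, TAIR10.1, 2 exons) measured, in replicate order, 39.2, 40.0 and 46.5 FPKM in RAV1 over-expression, 24.0, 31.6 and 33.4 FPKM in bes1-D, and 21.2, 23.8 and 29.1 in wild type. Every RAV1 over-expression library was above the others, while bes1-D and wild type overlapped. Against wild type GID1A was 1.7-fold higher (log2 difference 0.75, SE 0.15, adjusted p = 0.00592).

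GID1B (AT3G63010, chromosome 3, 23289243 to 23291486, plus strand, 2 exons), the receptor known for binding DELLAs also at low hormone levels, measured 26.9, 22.5 and 32.6 FPKM in RAV1 over-expression. It measured 12.7, 17.8 and 14.2 FPKM in bes1-D and 14.6, 13.4 and 16.9 FPKM in wild type. The RAV1 over-expression libraries again stood clear of all others. GID1B was 1.83-fold higher than in wild type (log2 difference 0.82, SE 0.16, adjusted p = 0.00511). GID1C (AT5G27320, chromosome 5, 9628990 to 9631291, plus strand, 2 exons) measured 14.1, 13.4 and 18.0 FPKM in RAV1 over-expression, 11, 15.68 and 13.39 FPKM in bes1-D, and 11.92, 12 and 12.09 in wild type. Its RAV1 over-expression libraries were above all wild-type libraries, but the difference of 0.3 did not pass (95% interval -0.01 to 0.61, adjusted p = 0.142). Whether GID1C differed from GID1A and GID1B in its response was not tested.

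The 3 receptors together summed to 84.5 ± 11.2 FPKM in RAV1 over-expression, 57.9 ± 9.06 FPKM in bes1-D and 51.7 ± 5.59 FPKM in wild type (SD, n = 3 each). The share of GID1C in that sum was 17.9% ± 0.509 in RAV1 over-expression, 23.0% ± 1.08 in bes1-D and 23.4% ± 2.24 in wild type, and the RAV1 over-expression libraries (17.6% to 18.5%) lay below the others. GID1A made up 49.8%, 51.2% and 47.6% of the sum, and GID1B 32.3%, 25.7% and 29.0%, in the same order.

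The DELLA genes are each a single exon. RGL3 (AT5G17490, chromosome 5, 5763989 to 5766246, minus strand), a DELLA known for its link to jasmonate responses, measured 4.48, 3.23 and 4.07 FPKM in RAV1 over-expression, 1.1, 1.84 and 1.31 FPKM in bes1-D, and 2.34, 1.94 and 2.04 in wild type. The 3 genotypes did not overlap: RAV1 over-expression was highest and bes1-D lowest. RGL3 was 1.86-fold higher in RAV1 over-expression than in wild type (log2 difference 0.66, SE 0.17, adjusted p = 0.0184). The call was lost without RAV1 over-expression replicate 1 (adjusted p = 0.0759) or 3 (0.0576), and without En2 wild type replicate 2 (0.0654) or 3 (0.0523).

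RGA (AT2G01570, chromosome 2, 255247 to 257568, minus strand), with GAI the main DELLA of vegetative growth, measured 45.1, 42.9 and 54.5 FPKM in RAV1 over-expression, 48.7, 42.1 and 43.7 FPKM in bes1-D, and 46.0, 37.9 and 39.5 in wild type. All 3 genotypes overlapped, and the difference from wild type in RAV1 over-expression was 0.2 (95% interval -0.05 to 0.45, adjusted p = 0.229). GAI (AT1G14920, chromosome 1, 5148982 to 5151415, plus strand) measured 20.6, 24.1 and 19.2 FPKM in RAV1 over-expression, 19.6, 11.8 and 15.7 FPKM in bes1-D, and 16.6, 19.5 and 15.4 in wild type. It too overlapped, with a difference of 0.3 (-0.08 to 0.67, adjusted p = 0.225).

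RGL1 (AT1G66350, chromosome 1, 24748105 to 24750186, plus strand) averaged 6.64 ± 1.18 FPKM in RAV1 over-expression, 5.42 ± 0.505 in bes1-D and 5.16 ± 0.405 in wild type (SD, n = 3 each). Its difference of 0.3 did not pass (adjusted p = 0.148), but did without RAV1 over-expression replicate 2 (0.43, adjusted p = 0.0445). RGL2 (AT3G03450, chromosome 3, 819337 to 821652, minus strand), the DELLA best known from seed germination, averaged 2.9 ± 0.572 FPKM, 3.16 ± 0.682 FPKM and 3.04 ± 0.384 FPKM in the same order. Its difference of -0.06 had an interval from -0.44 to 0.33. The seed maturation genes of the same libraries summed to between 135.8 and 1648 FPKM, and their part in the RGL2 value was not tested.

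The 5 DELLA genes summed to 82.3 ± 5.78 FPKM in RAV1 over-expression, 70.6 ± 6.92 FPKM in bes1-D and 68.6 ± 4.17 FPKM in wild type (SD, n = 3 each). RGA held 57.6%, 63.7% and 59.9% of the sum in that order, and RGL3 held 4.77% ± 0.736, 2.05% ± 0.735 and 3.07% ± 0.192. The ratio of summed GID1 to summed DELLA transcripts was 1.02 ± 0.0621 in RAV1 over-expression, 0.834 ± 0.203 in bes1-D and 0.758 ± 0.126 in wild type. In bes1-D replicate 2 the ratio was 1.01, inside the range of RAV1 over-expression, so that the libraries of these lines overlapped, while none of wild type (0.654 to 0.898) reached RAV1 over-expression (0.976 to 1.09).

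**Figure D2:**
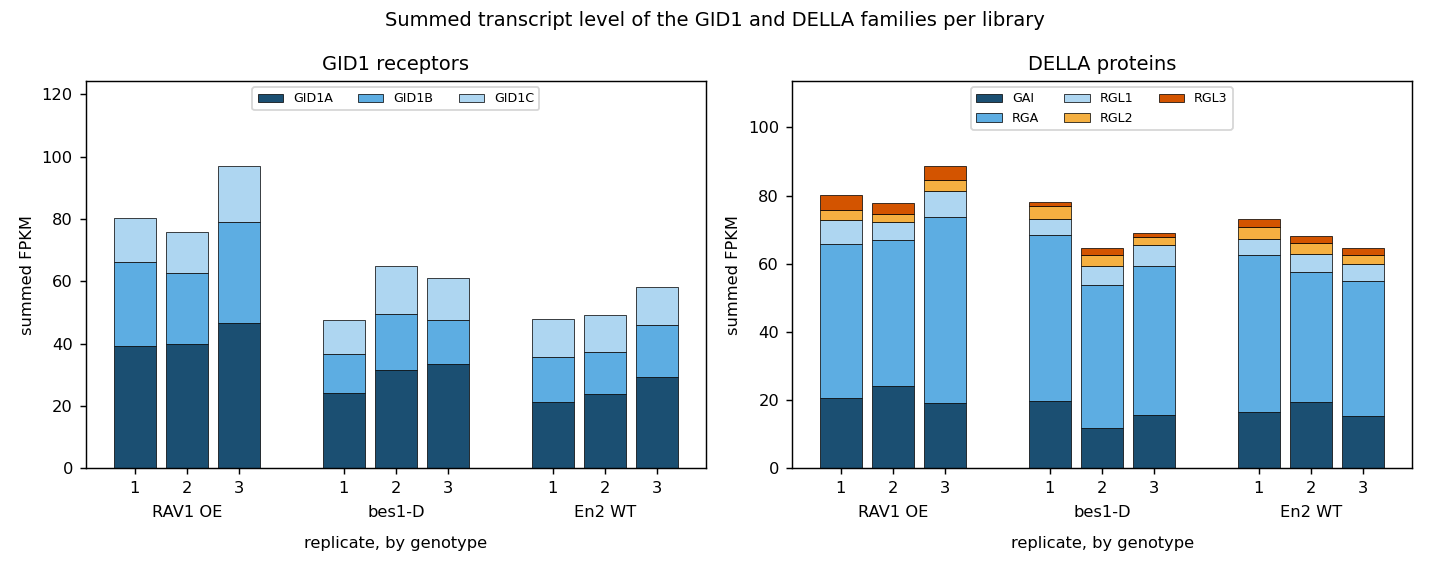
Summed FPKM of the GID1 receptor genes (left) and DELLA genes (right) per library, stacked by gene, for replicates 1 to 3 of RAV1 over-expression (RAV1 OE), bes1-D and En2 wild type (En2 WT). GID1 sums averaged 84.5 FPKM in RAV1 OE, against 51.7 in En2 WT; RGA and GAI make up most of each DELLA bar.

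The synthesis genes were lower on average in RAV1 over-expression, without passing. GA3OX1 (AT1G15550, chromosome 1, 5344388 to 5346342, minus strand, 2 exons), which makes bioactive gibberellin, measured 6.06, 8.05 and 7.73 FPKM in RAV1 over-expression, 13.8, 6.51 and 11.02 FPKM in bes1-D, and 14.1, 10.6 and 9.29 in wild type. Every RAV1 over-expression library was below every wild-type library, and bes1-D spanned both. The mean was 0.643 times that of wild type (log2 difference -0.56, 95% interval -1.09 to -0.03, adjusted p = 0.113). The difference passed with only the libraries of these 2 genotypes in the fit (adjusted p = 0.0469) and without bes1-D replicate 2 (0.0425).

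GA20OX2 (AT5G51810, chromosome 5, 21055179 to 21056881, minus strand, 2 to 3 exons), which makes the precursor of the 3-oxidase step, measured 1.67, 2.7 and 1.69 FPKM in RAV1 over-expression, 2.9, 2.17 and 4.39 FPKM in bes1-D, and 3.23, 3.69 and 2.51 in wild type. The genotypes overlapped, and the difference from wild type was -0.46 (-0.95 to 0.03, adjusted p = 0.154). TEM1 and TEM2, relatives of RAV1 known to repress GA3OX1, fell in this line against wild type (log2 difference -1.97, adjusted p = 0.00359, and -2.01, adjusted p = 0.00338). TEM1 measured 47.9, 85.0 and 32.3 FPKM in RAV1 over-expression, 132.6, 210.0 and 146.1 FPKM in bes1-D, and 157.9, 223.1 and 234.7 in wild type. TEM2 measured 43.3, 63.4 and 23.8 FPKM in RAV1 over-expression, 117.4, 160.5 and 106.0 FPKM in bes1-D, and 126.1, 202.0 and 177.2 in wild type.

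Within RAV1 over-expression, replicate 2 had the lowest RAV1, the lowest seed maturation sum and the highest green tissue sum. It was also the lowest of its line for GID1B, GID1C, RGA, RGL1, RGL2 and RGL3, and the highest for GA3OX1, GA20OX2 and GAI. Replicate 3, with the highest RAV1, was the highest for GID1A, GID1B, GID1C, RGA, RGL1 and RGL2. The order of replicates 2, 1 and 3, low to high, was that of RAV1 and of the seed maturation sum. GID1B, GID1C, RGA, RGL1 and RGL2 had it too, and so had GA2OX2, SCL3, ENY, SEC, LBD40, GASA3 and GASA14, described below. ENY spanned only 21.83 to 22.27 FPKM in these libraries. GA3OX1, GA20OX2, GID1A, GAI and RGL3 did not have this order. Of the genes described below, GASA4, which rose, did not have it either and was highest in replicate 1. Nor did GASA5, which fell and was lowest in replicate 3. The other genes below that fell were not placed by this order. The share of all tested loci with this order was not counted. These are single libraries, and the relation was not tested.

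Setting bes1-D against wild type asks the same for the BES1 mutation. None of the 10 passed in limma, against 7.96% of tested loci called (2.19% higher, 5.77% lower). An unadjusted p under 0.05 was found for 1 of the 10, and for 4646 of the 19740 tested loci. Differences ran from -0.37 to 0.25, with a median of 0.0, against a median of -0.062 over all tested loci. RGL3 was the gene with the small unadjusted p (0.049). It averaged 1.42 ± 0.381 FPKM in bes1-D and 2.11 ± 0.208 FPKM in wild type (SD, n = 3 each), with no overlap (log2 difference -0.37, adjusted p = 0.21). RGL3 was the 1 gene of the 10 without overlap here, against 29.5% of all tested loci (9.65% higher, 19.8% lower). GID1A averaged 29.7 ± 4.99 FPKM in bes1-D and 24.7 ± 4.04 FPKM in wild type, a difference of 0.25 with a 95% interval from -0.07 to 0.58. Of the 9 genes other than RGL3 all overlapped between bes1-D and wild type, and their intervals were wide: for GA3OX1 the interval ran from -0.67 to 0.38 and for GA20OX2 from -0.51 to 0.47. Higher calls made up 27.5% of all calls over the tested loci, against 48% under trimmed-mean scaling and 41.8% under quantile normalization.

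Set directly against bes1-D, RAV1 over-expression had higher GID1A, GID1B and RGL3, and none of the 10 was lower. This is 3 of 10 genes, against 38.5% of all tested loci called in either direction (28% higher, 10.6% lower). These 3 were also the genes without overlap, against 51.3% of all tested loci (38.2% higher, 13% lower). The libraries are those of the comparisons above, so these differences are no independent evidence on either line. RGL3 had the largest difference of the 10, at 2.77-fold (log2 difference 1.03, SE 0.17, adjusted p = 0.00135). GID1B was 1.84-fold higher (0.83, SE 0.16, adjusted p = 0.00285). GID1A was 1.41-fold higher (0.49, SE 0.15, adjusted p = 0.024). The GID1A call was lost without RAV1 over-expression replicate 3 (adjusted p = 0.0798) or bes1-D replicate 1 (0.0725). It was also lost under trimmed-mean scaling (0.31, adjusted p = 0.141) and quantile normalization (0.34, adjusted p = 0.0948), settings under which the median of all loci in this comparison is 0.019 and 0.034 in place of 0.191. GAI differed by 0.44 (adjusted p = 0.0623) and passed without bes1-D replicate 1 (0.018), and GA3OX1 differed by -0.42 (adjusted p = 0.181) and passed without bes1-D replicate 2 (0.0232). Of all calls in this comparison 72.6% were higher, against 43.6% under trimmed-mean scaling and 47.9% under quantile normalization.

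**Figure D3:**
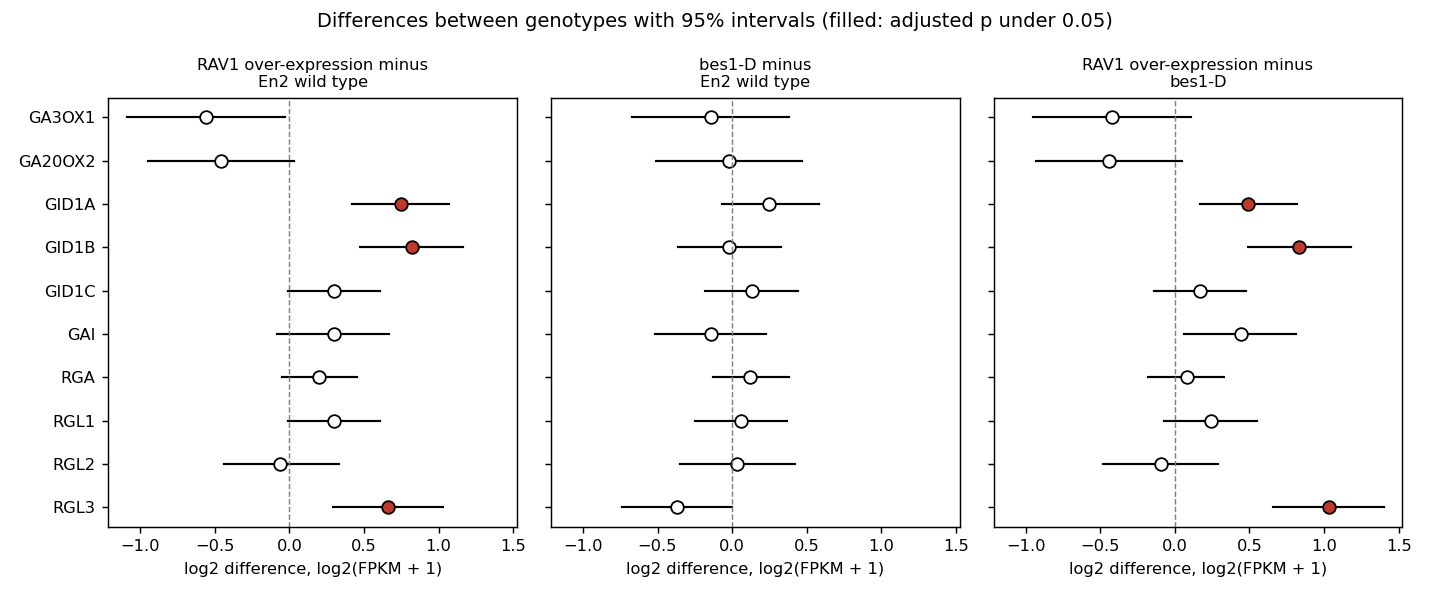
Log2 difference of each gene on the log2(FPKM + 1) scale in the 3 comparisons, with 95% limma intervals not adjusted over genes; filled points passed at adjusted p under 0.05. GID1A, GID1B and RGL3 are filled in both comparisons that involve RAV1 over-expression, and no point is filled for bes1-D against En2 wild type.

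Genes around the 10 were described by lists written with earlier results of these data known. Their counts stand beside the shares of all tested loci called. These were 23% in RAV1 over-expression against wild type (15% higher, 8.01% lower) and 7.96% in bes1-D against wild type (2.19% higher, 5.77% lower). Between the lines the share was 38.5% (28% higher, 10.6% lower). Among the inactivation genes, the GA 2-oxidase gene GA2OX2 rose in both lines. It measured 20.4, 12.3 and 24.2 FPKM in RAV1 over-expression, 8.18, 8.59 and 7.89 FPKM in bes1-D, and 3.21, 3.93 and 4.35 in wild type. The 3 genotypes did not overlap. GA2OX2 was 4.95-fold higher in RAV1 over-expression than in wild type (log2 difference 2.0, SE 0.21, adjusted p = 0.000321). It was 2.15-fold higher in bes1-D than in wild type (0.94, SE 0.21, adjusted p = 0.0227) and RAV1 over-expression exceeded bes1-D by 2.31-fold (1.07, adjusted p = 0.0033). The bes1-D call was lost without any 1 of the bes1-D libraries (adjusted p = 0.0582, 0.0705 and 0.0501 for replicates 1 to 3) and without En2 wild type replicate 1 (0.0829) or 2 (0.0689).

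Of the 11 inactivation genes 5 were tested. In RAV1 over-expression against wild type 1 rose and 1 fell: GAMT2, a gibberellin methyltransferase known mainly from developing seeds, averaged 0.273 FPKM in RAV1 over-expression and 1.69 FPKM in wild type (-1.02, adjusted p = 0.0136). GAMT2 was under 1 FPKM in every RAV1 over-expression library and passed the filter only through the other genotypes, where it is higher. Against bes1-D, GA2OX6 (0.61, adjusted p = 0.0327) was higher as well and GAMT2 (-0.8, adjusted p = 0.0251) lower. The GA2OX6 call was lost under trimmed-mean scaling (adjusted p = 0.115) and quantile normalization (0.122), with only these 2 genotypes fitted (0.0584), and without RAV1 over-expression replicate 1 (0.0854) or 2 (0.0954) or bes1-D replicate 1 (0.0971). That of GAMT2 was lost without RAV1 over-expression replicate 1 (0.0596) or 3 (0.0702), or bes1-D replicate 1 (0.0628) or 2 (0.0664). The 6 untested genes of the list ran from 0 to 1.31 FPKM.

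Of 5 genes of early synthesis, upstream of the oxidases, 4 were tested, and none passed in RAV1 over-expression or bes1-D against wild type. In RAV1 over-expression the ent-kaurene synthase gene GA2 differed from wild type by 0.32 (adjusted p = 0.223), the ent-kaurenoic acid oxidase KAO1 by 0.25 (0.161) and the ent-kaurene oxidase GA3 by 0.09 (0.608). In bes1-D KAO2 differed by 0.32 (0.158), KAO1 by -0.17 (0.441) and GA2 by 0.24 (0.466). Between the lines, KAO1 was higher in RAV1 over-expression (0.43, adjusted p = 0.021). That call was lost under trimmed-mean scaling (0.126) and quantile normalization (0.167), and without RAV1 over-expression replicate 1 (0.0643) or 3 (0.0709) or bes1-D replicate 1 (0.0633). Under the same scalings KAO2 was instead lower in RAV1 over-expression (-0.41, adjusted p = 0.0324, and -0.4, adjusted p = 0.0352), where without them it did not pass (-0.23, 0.167). Of the 7 other GA 20-oxidase and GA 3-oxidase genes 4 were in the table, at 0 to 2.02 FPKM, and none was tested. GA3OX1 and GA20OX2 were the tested genes of their families.

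Among the genes that act on DELLA proteins, 1 of 4 rose in RAV1 over-expression: SEC, an O-GlcNAc transferase, averaged 35.3 ± 3.63 FPKM in RAV1 over-expression and 25 ± 3.0 FPKM in wild type (SD, n = 3 each; 0.48, adjusted p = 0.0389). That call was lost under trimmed-mean scaling, quantile normalization, no filter and plain moderation, and without RAV1 over-expression replicates 1 or 3, bes1-D replicate 2 or En2 wild type replicates 2 or 3 (adjusted p from 0.0502 to 0.13). The F-box gene SLY1, which targets DELLAs for destruction, differed by 0.21 in RAV1 over-expression (adjusted p = 0.22) and by 0.22 in bes1-D (0.298). Its relative SNE differed by 0.33 in bes1-D (0.329) and SPY by -0.14 (0.63), and none of the 4 passed there or between the lines, where SEC differed by 0.35 (0.0827), SPY by 0.22 (0.253) and SNE by -0.15 (0.552).

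Of 8 DELLA partners and feedback factors, 2 rose and 1 fell in RAV1 over-expression. SCL3, a GRAS-family antagonist of DELLAs whose transcript is itself raised by them, measured 21.3, 16.3 and 32.4 FPKM in RAV1 over-expression, 11.96, 14.36 and 11.97 FPKM in bes1-D, and 12.97, 9.93 and 12.01 in wild type. It was 2.01-fold higher than in wild type (0.9, adjusted p = 0.0127), but not without En2 wild type replicate 2 (0.0524). ENY, an INDETERMINATE-domain protein, averaged 22.1 FPKM in RAV1 over-expression and 16.0 FPKM in wild type (0.45, adjusted p = 0.0067). In bes1-D ENY did not pass (0.31, adjusted p = 0.063), but it did under trimmed-mean scaling (0.0297) and quantile normalization (0.0345). AHL25 did not pass in RAV1 over-expression against wild type (-0.48, adjusted p = 0.0712), but was lower under trimmed-mean scaling (0.0491), quantile normalization (0.0404) and plain moderation (0.0428). IDD5, an INDETERMINATE-domain protein like ENY, fell (-0.45, adjusted p = 0.0326), a call lost without any 1 RAV1 over-expression library (adjusted p = 0.0556, 0.068 and 0.0975) and without En2 wild type replicate 1 (0.102) or 2 (0.0887). In bes1-D only GAF1 of the 8 rose (0.34, adjusted p = 0.0475), and that call was lost in 12 of 17 alternatives, leaving out any of the 9 libraries among them (adjusted p from 0.0517 to 0.164).

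Between the lines SCL3 (0.77, adjusted p = 0.016) and IDD4 (0.37, 0.0216) were higher in RAV1 over-expression, and GAF1 (-0.31, 0.0249) and IDD5 (-0.37, 0.048) were lower. The SCL3 call was lost under trimmed-mean scaling (0.0506) and quantile normalization (0.05), and that of IDD4 under the same settings (0.212 and 0.191) and without RAV1 over-expression replicate 2 (0.059) or 3 (0.0689) or bes1-D replicate 1 (0.0552). GAF1 was not called without RAV1 over-expression replicate 1 (0.0609) or 2 (0.0747) or bes1-D replicate 2 (0.0642). AHL25 did not pass (-0.41, 0.0829), but was lower under trimmed-mean scaling (0.0421), quantile normalization (0.0242) and plain moderation (0.049). MGP did not pass either (-0.33, 0.143), but was lower under quantile normalization (0.0445). IDD5 was not called in 11 of 17 alternatives (adjusted p up to 0.148), which included leaving out any library other than bes1-D replicate 3, and its groups overlapped.

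Of 5 further genes known to be raised by DELLAs, 1 rose and 2 fell in RAV1 over-expression. LBD40, a LOB-domain transcription factor, measured 81.8, 42.5 and 97.7 FPKM in RAV1 over-expression, 2.4, 3.68 and 4.9 FPKM in bes1-D, and 1.26, 2.48 and 2.63 in wild type, a 34.9-fold difference of the first from the last (4.53, adjusted p = 0.000113). BHLH137 fell (-1.11, adjusted p = 0.0182), though not without RAV1 over-expression replicate 3 (0.0643) or En2 wild type replicates 1 (0.062) or 3 (0.0522). IQD22 fell (-0.42, adjusted p = 0.0417), a call lost in 9 of 17 alternatives (adjusted p up to 0.145), among them the fit without any 1 RAV1 over-expression library, without bes1-D replicates 1 or 2 and without En2 wild type replicates 1 or 3. In bes1-D none of the 5 passed, and IQD22 (-0.37, 0.11), WRKY27 (-0.37, 0.161) and LBD40 (0.57, 0.327) had the smallest p. Against bes1-D, LBD40 was higher in RAV1 over-expression (3.96, adjusted p = 6.15e-05) and BHLH137 lower (-0.82, 0.0417), the last lost in 9 of 17 alternatives, including without RAV1 over-expression replicates 2 or 3, bes1-D replicates 1 or 3 or any wild-type library (adjusted p up to 0.136). XERICO did not pass against bes1-D (-0.27, adjusted p = 0.0946). It was lower under trimmed-mean scaling (0.0155), quantile normalization (0.0188) and without RAV1 over-expression replicate 3 (0.0452). WRKY27 did not pass against bes1-D either (0.39, 0.0591). It was higher without RAV1 over-expression replicate 2 (0.0299) or En2 wild type replicate 3 (0.0444). Members of this set thus moved in both directions.

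GASA genes encode small cysteine-rich peptides, several of them known to respond to gibberellin. Of 9 in the list 8 were tested, and in RAV1 over-expression 3 rose and 1 fell. GASA14 measured 478.8, 305.9 and 566.9 FPKM in RAV1 over-expression, 253.0, 167.2 and 172.3 FPKM in bes1-D, and 161.0, 182.3 and 173.5 in wild type, a rise of 2.62-fold over wild type (1.34, adjusted p = 0.00302). GASA4 was 1.43-fold higher (0.52, adjusted p = 0.0178), but not without RAV1 over-expression replicate 1 (0.0677) or En2 wild type replicate 2 (0.0699). GASA3 measured 7.75, 2.39 and 25.4 FPKM in RAV1 over-expression and 1.1, 1.01 and 1.32 FPKM in wild type (2.11, adjusted p = 0.0299). Its call was lost with only these 2 genotypes fitted (0.0527), without RAV1 over-expression replicate 1 (0.0775) and without any 1 wild-type library (adjusted p = 0.0767, 0.0882 and 0.0734). GASA5 measured 11.3, 8.45 and 6.08 FPKM in RAV1 over-expression, 28.4, 21.8 and 38.2 FPKM in bes1-D, and 38.9, 27.5 and 32.7 in wild type, a fall (-1.85, adjusted p = 0.000995).

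None of the 8 GASA genes passed in bes1-D against wild type. GASA4 had -0.42 (adjusted p = 0.0755; 0.00842 without bes1-D replicate 3), GASA1 -0.56 (0.371) and GASA9 0.25 (0.516). Against bes1-D, GASA3 (2.23, adjusted p = 0.0157), GASA4 (0.94, 0.000591) and GASA14 (1.17, 0.00348) were higher in RAV1 over-expression and GASA5 lower (-1.66, 0.000803).

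**Figure D4:**
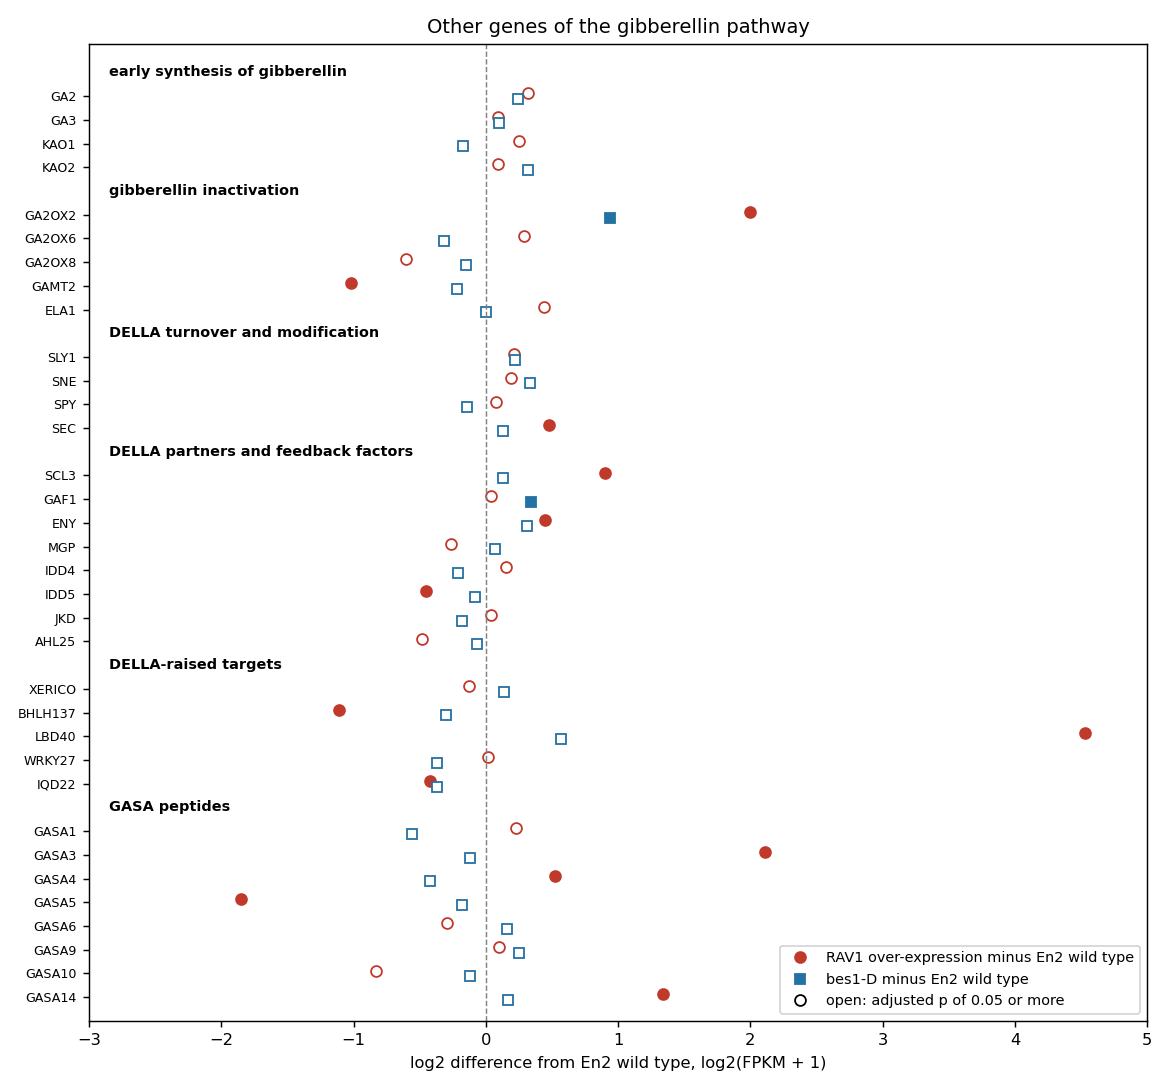
Log2 difference from En2 wild type on the log2(FPKM + 1) scale of the tested genes around the 10, by list, for RAV1 over-expression (circles) and bes1-D (squares); filled symbols passed at adjusted p under 0.05. In RAV1 over-expression LBD40 (4.53), GASA3 (2.11) and GA2OX2 (2.0) lie farthest right and GASA5 (-1.85) farthest left; in bes1-D GA2OX2 and GAF1 are filled.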

How the data were processed

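The authors deposited 1 table with an FPKM value per locus and library, with 9 columns matched to the samples by name. Per the submitters' processing notes, the tools were Cufflinks 2.1.1, TopHat2 and FastQC 0.10.1, and the build was TAIR10; further scaling is not given in the sources used here. Depth in fragments is unknown, and counting intervals are therefore left out. From the steps of low values, libraries had an estimated 83.5% to 113% of the depth of En2 wild type replicate 1. The file holds no coordinates; positions and promoters come from the RefSeq TAIR10.1 annotation, matched by locus identifier (25135 of 25199 loci). The sequence is that of Columbia, not En2.

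The two-sided limma 3.58.1 test (R 4.3.3, trend and robust options) was run on log2(FPKM + 1) for the 19740 loci that reached 1 FPKM in 3 or more libraries. All 9 libraries were fitted as group means with 6 residual degrees of freedom. In data simulated for RAV1 over-expression against wild type over 19678 tested loci, 160 of 200 genes changed 2-fold in FPKM + 1 were recovered, with 5 false calls. The changed genes were drawn from loci averaging above about 5 FPKM, so this recovery does not cover GA20OX2, RGL2 and RGL3. Nothing in the labels pairs samples by replicate number, so the numbers were not taken as pairs in the main fit. Deviations of same-numbered libraries of different groups correlated from -0.076 to 0.151, and those of different-numbered ones from -0.156 to 0.069. The labels call replicates biological without naming separate plants, so p-values measure the spread between these samples.

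The 10 genes and the 11 lists beside them were chosen with earlier results of these data known. From the pathway lists every gene that passed is named, or else up to 3 with the smallest p; marker lists are given mainly by counts, with names for RAV1 over-expression and bes1-D against wild type. Alternatives were a pseudocount of 0.1, other filters and scalings, other fits and leaving out each library. Calls gained only under an alternative are not given for every listed gene. Python 3.11.15 with pandas 2.3.3, numpy 2.4.6 and matplotlib 3.10.9 was used for summaries and figures.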

Additional observations from a re-analysis of the deposited data

How the results depend on the processing

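GID1A and GID1B rose in RAV1 over-expression against wild type under every alternative tried, and GID1B and RGL3 were higher than in bes1-D in every one that tested them. RGL3 was not tested with the filter of 5 FPKM. Leaving out 1 library gave 2 to 4 genes called against wild type, 0 in bes1-D and 2 to 4 between the lines. The fit with the replicate number as a block gave 3, 0 and 3 calls, as without it, and it changed no call of the 10; 2 of 9 same-numbered pairs correlated above 0.1. Among the other listed genes, the block ended the calls of IQD22 in RAV1 over-expression (adjusted p = 0.0585) and of GAF1 (0.074) and CASP1 (0.0535) in bes1-D. With it OLEO2 passed between the lines (0.0441). Uncalled differences near 0 changed sign. In bes1-D against wild type, GA20OX2 was 0.0423 under trimmed-mean scaling and 0.0883 under quantile normalization, and GID1B 0.0636 and 0.0446. Between the lines RGA was -0.112 and -0.0799 under these settings, and GID1C was -0.00638 under trimmed-mean scaling. Without 1 library, differences in bes1-D ran from -0.356 to 0.132 for GA3OX1, -0.227 to 0.156 for GA20OX2, -0.142 to 0.085 for GID1B, -0.307 to 0.04 for GAI and -0.0674 to 0.17 for RGL2. RGL2 ran from -0.157 to 0.0569 in RAV1 over-expression and from -0.228 to 0.0239 between the lines, and RGA from -0.0252 to 0.145 between the lines. The cause was not tested. Over all loci, leaving out 1 library gave 2644 to 5112 calls in RAV1 over-expression against wild type, in place of 4541, and 616 to 1717 in bes1-D against wild type, in place of 1572. The lowest counts were those without En2 wild type replicate 2 (2700 and 616) and, for RAV1 over-expression, without its replicates 1 (2644) or 3 (2798). In bes1-D the count was also lower by over 1.5 times without En2 wild type replicates 1 (724) or 3 (800), bes1-D replicate 2 (840) or RAV1 over-expression replicate 1 (1029).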

Other observations

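The loci most like each gene that rose, by Pearson correlation of log2(FPKM + 1) over the 9 libraries, are given as a description. For GID1A they were AT4G16442 (a CASP-like protein, r = 0.988), AT5G39890 (the plant cysteine oxidase PCO2, r = 0.983), an oxygen-sensing enzyme, and AT4G33560 (r = 0.983). PCO2 averaged 131.1 FPKM in RAV1 over-expression, 47.1 in bes1-D and 32.0 in wild type. For GID1B they were IVD (r = 0.987), a leucine breakdown enzyme, PPH (r = 0.987), the pheophytinase of chlorophyll breakdown, and CYP72A7 (r = 0.985). PPH averaged 60.1 FPKM in RAV1 over-expression, 35.1 in bes1-D and 33.3 in wild type. For RGL3 they were HL (r = 0.987), AT2G35450 (r = 0.984) and PGGT-I (r = 0.982). The 9 libraries fall in 3 genotypes, so loci that separate RAV1 over-expression share high values.

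Among the 10 genes, GID1B correlated with RGL3 (r = 0.91) and GID1A (r = 0.88) over the same 9 libraries, and GID1B with GA20OX2 at r = -0.82. With GID1A, GID1B and GID1C, RGL2 had r = -0.37, -0.08 and 0.04, and GAI had r = 0.25, 0.31 and -0.16.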
